A study of Drosophila melanogaster with 23 samples.

Results

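Adult males of 2 strains of Drosophila melanogaster, Canton S and Zimbabwe29, were compared directly on 2 spotted cDNA microarrays with exchanged channels, which are the 2 arrays of 23 in the series whose channels carry these strains in the sample labels. The replicate 1 array had Zimbabwe29 in channel 1 and Canton S in channel 2, and the replicate 2 array had the strains the other way round. Canton S is a common laboratory stock, and Zimbabwe29 is 1 of 4 strains of the series named after Zimbabwe. No treatment is given for any strain: all flies grew at 25 °C on standard food without a light cycle, and males were kept away from females until they were 3 to 4 days older. Whole flies were homogenised in lots of 8 to 12, and all extractions of a strain went into 1 RNA pool. The 2 arrays are therefore a technical dye swap of the same 2 pools and count as 1 replicate, so their spread describes the hybridisations and not the flies.

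Natural strains of this species differ heritably in how much of many transcripts they make, and populations from southern Africa are known to be the most variable of the species. Whole adult males give RNA from muscle, gut, fat body, nervous system, testis and accessory glands together. In such bulk RNA, more of a tissue and more transcript per cell of that tissue cannot be told apart. A 2-colour array reads only the ratio of the 2 samples at each printed spot, called a feature here, and says nothing of how abundant a transcript is.

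The deposited log ratios were read as log10, since no base is stated, and all folds rest on that reading. Which channel was on top of the ratio is also not stated. Values below are turned log2 ratios: each array was centred on its median and the replicate 1 array was turned, so that both run as channel 1 Canton S against channel 2 Zimbabwe29. A positive value means more transcript in Canton S if channel 1 was the numerator, and more in Zimbabwe29 if channel 2 was. Because this is unknown, no strain is called higher or lower, and genes are said to lie on the positive or the negative side.

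The replicate 1 array gave values for 4968 of 6101 features and the replicate 2 array for 3272, with 3252 measured on both. Of these, 995 features carried 1 gene name, for 940 genes with the feature chosen to stand for each, 39 carried several names and 2218 carried none here. The replicate 2 array was the noisier one. Over the features measured on both arrays, the SD of its log2 ratios was 0.46, against 0.32 on the replicate 1 array, and this ratio of 1.45 was above the range of 0.749 to 1.17 in the 7 other channel-exchanged pairs of the series. The ribosomal protein gene RpL32, which was printed as 12 features, shows the same thing within 1 gene: its features had an SD of 0.41 on the replicate 2 array and of 0.13 on the replicate 1 array, around medians of 0.07 and -0.02. The correlation of the turned ratios across features was r = 0.489, and it ranged from 0.285 to 0.809 in the other 7 pairs. These correlations run across features of shared arrays and are given without a p.

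The first question was which transcripts differed between Canton S and Zimbabwe29. A feature was called when it lay beyond 1.5-fold on both arrays and on the same side, and 109 of 3252 features met this rule, or 3.35%. In the other 7 channel-exchanged pairs this share was 1.70% to 6.36%. On the positive side lay 49 of them and on the negative side 60. Only 3 features, none of them named, were beyond 1.5-fold on both arrays but on opposite sides. Beyond 1.5-fold on 1 array alone lay 101 features on the replicate 1 array and 442 on the replicate 2 array. Over all 3252 features, 59.4% lay on the same side on both arrays. No p-value belongs to these calls, since there is 1 RNA pool a strain. The median size of a called difference was 1.88-fold, against 1.13-fold over all 3252 features. Of the called features, 43 had a mean beyond 2-fold, 5 beyond 4-fold and 1 beyond 8-fold. That last one has no gene name here: it read 3.26 on the replicate 1 array and 3.05 on the replicate 2 array, an 8.90-fold difference on the positive side.

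**Figure D1:**
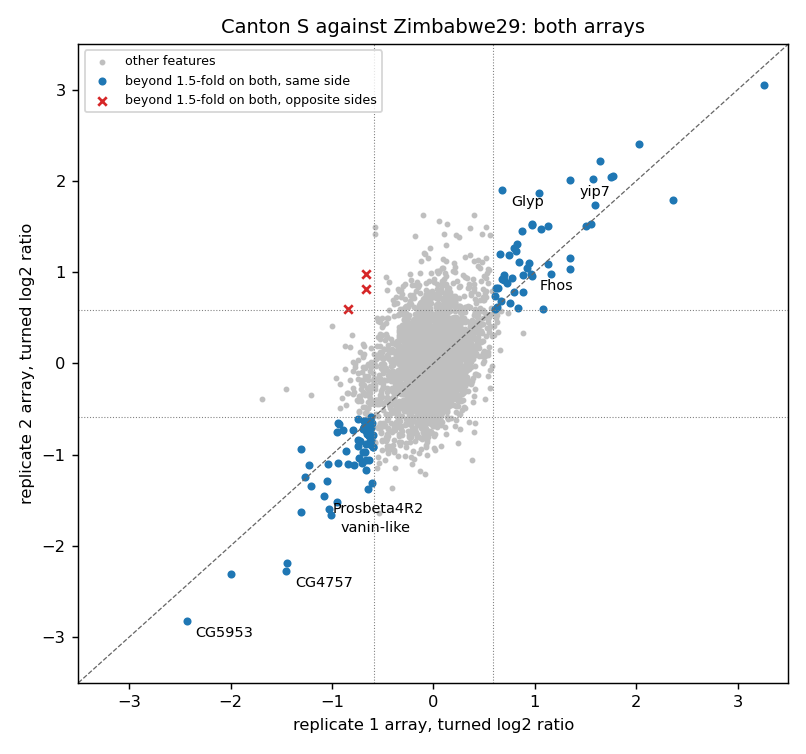
Turned log2 ratio of each feature on the replicate 1 array (horizontal) and the replicate 2 array (vertical), with dotted lines at 1.5-fold and a dashed line of equality. The 109 called features (blue) run along the line at both ends, 3 features (red crosses) lie beyond 1.5-fold on opposite sides, and the cloud of other features is taller than wide because the replicate 2 array scattered more.

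Among named genes, 18 of 940 were called (1.91%), with 9 on each side. The strain with more transcript is not known for any of them, but genes on opposite sides differ in opposite directions. CG5953 showed the largest difference of a named gene. It read -2.43 on the replicate 1 array and -2.82 on the replicate 2 array, a mean of -2.63 ± 0.27 (SD, n = 2 arrays) or 6.18-fold. CG4757 came next on the same side with -1.45 and -2.28, a 3.64-fold difference. Both arrays placed both genes far outside the cloud of other features.

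On the opposite side, yip7, a serine protease of the gut, read 1.35 on the replicate 1 array and 2.01 on the replicate 2 array, or 3.21-fold. Glyp, glycogen phosphorylase, which releases glucose units from stored glycogen, read 0.68 and 1.90, or 2.45-fold. Its 2 arrays lay on the same side but differed widely (SD 0.87), so the size of the Glyp difference is poorly fixed by the direct arrays. Cpr72Ec, a structural protein of the cuticle, read 0.80 and 1.26, or 2.04-fold. rtet, a relative of membrane transporters, read 0.75 and 1.19, or 1.96-fold. Ugt35A1, a UDP-glycosyltransferase that couples sugars to small lipophilic molecules, read 0.65 and 1.20, or 1.90-fold.

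Some genes of the positive side were nearly equal on both arrays. Fhos, a formin that organises actin filaments and muscle sarcomeres, read 0.96 and 0.98 on the feature chosen to stand for it, and 1.34 and 1.15 on a second feature. CG9297 read 0.98 and 0.96, and CG11841 read 0.79 on both arrays, a 1.73-fold difference. CG8745 was less even, with 1.08 on the replicate 1 array and 0.60 on the replicate 2 array. For Fhos the separate printings of the gene gave the same answer. Of 33 genes with several features on both arrays, 20 had all their means on the same side, and only Fhos had every feature called.

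On the negative side, vanin-like, a relative of pantetheinase enzymes that recycle pantothenate, read -1.01 and -1.66, or 2.52-fold. Prosbeta4R2, a relative of a proteasome subunit that is made in the testis, read -1.08 and -1.46, or 2.41-fold. Vps51, a subunit of a complex that tethers vesicles at the Golgi, read -0.64 and -1.06, or 1.80-fold. These genes all had the larger size on the noisier array. JMJD4, a protein of the Jumonji family, read -0.89 and -0.73. Cyp12d1-p, a mitochondrial cytochrome P450, read -0.62 and -0.84, or 1.66-fold. The smallest called differences were CG7084, with -0.68 and -0.63, and Got2, an aspartate aminotransferase, with -0.60 and -0.65.

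**Figure D2:**
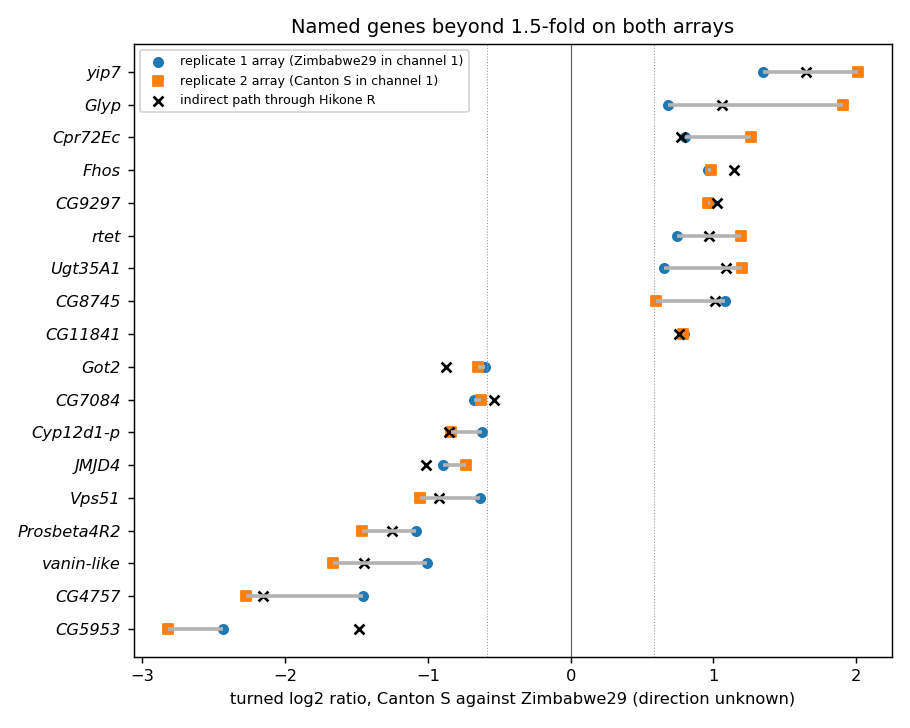
Turned log2 ratio of the 18 called genes on the replicate 1 array (blue circles), on the replicate 2 array (orange squares) and by the indirect path through Hikone R (crosses), with dotted lines at 1.5-fold. All 18 indirect values lie on the side of the direct arrays. CG5953 has the widest gap between the indirect value and both arrays, and Glyp and CG4757 the widest gaps between arrays.

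The same pair of strains can also be compared along a path that uses neither of the 2 arrays. Hikone R, another strain of the series, was hybridised with Canton S on 2 channel-exchanged arrays and with Zimbabwe29 on 1 array, and adding both differences gives an indirect value. It rests on the same RNA pools and shares no array with the direct value. It is not wholly separate: the replicate 2 array of the pair and the replicate 2 array of Canton S and Hikone R share a title stem. The labels do not give the meaning of that stem. Both arrays were wide, with an SD of 0.464 and 0.459, and so were some arrays with other stems. The widest, St Louis and Zimbabwe53 replicate 1, had an SD of 0.521. Over 3183 features the direct and the indirect value correlated with r = 0.717, as a description across features. The replicate 1 array alone followed the indirect value with r = 0.798 and the noisier replicate 2 array with r = 0.501. The root mean square difference between direct and indirect values was 0.30, beside an SD of 0.34 for the direct values and 0.42 for the indirect ones. Leaving out the array with Hikone R that shares the stem gave 0.297, over 3137 features. Leaving out the replicate 2 array of the pair gave 0.294, but over 4664 features. Over the same 3183 features, the root mean square difference from the indirect value was 0.255 for the replicate 1 array and 0.446 for the replicate 2 array.

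All 107 called features with an indirect value had it on the same side, and in 90 of them it was itself beyond 1.5-fold. Over all 3183 features, 72.4% had both values on the same side. The 2 shares are not like for like, because the called features were chosen for size and most others lay near 0. The median indirect size was 0.99 log2 in the called features, against 0.24 over the 4686 features fitted along that path. CG4757 was -2.16 by the indirect path (4.46-fold), yip7 was 1.65 (3.13-fold) and Prosbeta4R2 was -1.25 (2.38-fold), each within 0.30 of its direct mean. vanin-like was -1.45, with only 1 array of Canton S and Hikone R, Glyp 1.06 and Fhos 1.14. rtet was 0.97 by both routes.

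CG5953 was the main exception in size. Its indirect value was -1.49 (2.80-fold), against a direct mean of -2.63. The indirect value combined a difference of 2.63 between Canton S and Hikone R with one of -4.12 between Hikone R and Zimbabwe29. Both legs were large and of opposite sign, so Hikone R and Zimbabwe29 lay on opposite sides of Canton S. The gap of -1.14 between direct and indirect values was the largest of any named gene, while the side was the same by both routes. The next gaps were 1.10 in janB and 0.95 in fs(2)ltoPP43, neither of which was called; fs(2)ltoPP43 had a direct mean of 0.19 and an indirect value of -0.77.

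**Figure D3:**
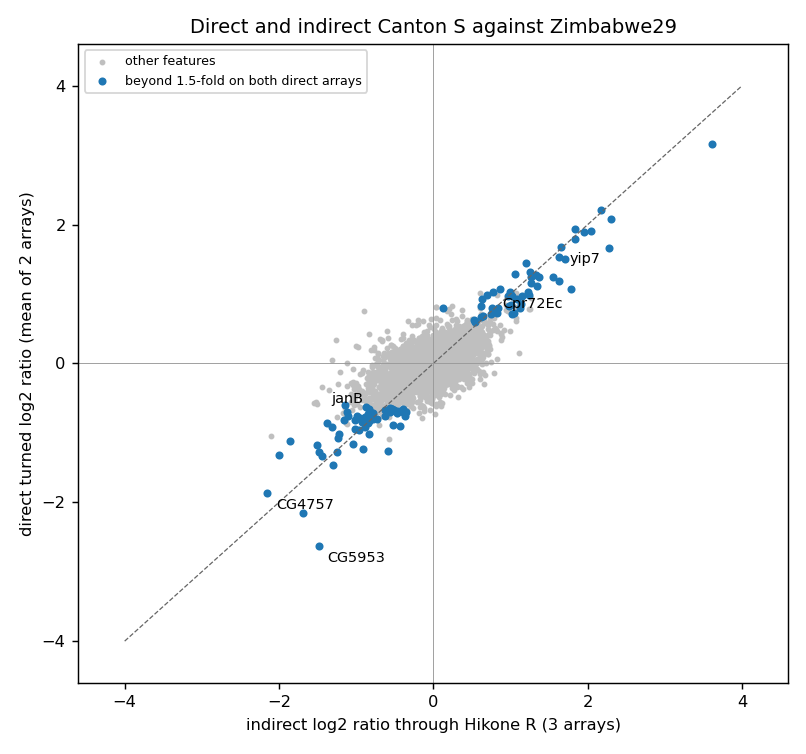
Direct turned log2 ratio of each of 3183 features (mean of 2 arrays, vertical) against the indirect log2 ratio through Hikone R (up to 3 arrays, horizontal), with a dashed line of equality. Every called feature (blue) falls in the lower left or upper right quadrant, with CG5953 below the line.

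A test needs a measure of error, which the pair cannot give alone. Strain levels were therefore fitted in limma to all 13 pairs of strains on 21 arrays, and the Canton S minus Zimbabwe29 contrast was taken from that fit. Arrays of a pair were averaged before the fit, so the errors come from the scatter of pair values around the fitted strain levels. How far the 2 arrays of a pair differed does not enter them, and they hold nothing of the variation among flies. Of 4841 features, 788 passed at a Benjamini-Hochberg adjusted p under 0.05, or 16.3%, with 351 on the positive and 437 on the negative side. Unadjusted, 1403 features had a p under 0.05. Most of the differences were small: the median size of the 788 was 1.42-fold, 280 were beyond 1.5-fold, 65 beyond 2-fold and 7 beyond 4-fold. All 109 features called on both arrays passed, but these arrays are part of the fit. The count rested on the few arrays of Zimbabwe29, with 469 features without its replicate 2 array with Canton S, 546 without replicate 1 and 494 without its array with Hikone R.

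Without both direct arrays the contrast equals the indirect path, and 159 of 4686 features passed in limma (3.39%, 833 unadjusted). Of the 107 features called on the direct arrays and present there, 61 passed, all on the same side, and 46 did not pass. The median standard error was 0.22 log2 in this fit and 0.12 with all arrays. Here only 1 array joined Zimbabwe29 to the rest, through Hikone R, so the fit met the values of that path exactly. Its errors come only from the scatter of pairs without either strain, and hold nothing of the noise of the Hikone R arrays. Passing here therefore does not measure how well the indirect value is fixed. Among the 18 called genes, 12 passed on the arrays that had no part in calling them. The others were Cpr72Ec (adjusted p = 0.36), CG7084 (0.22), CG11841 (0.089), Vps51 (0.069), Got2 (0.056) and rtet (0.054), all in limma.

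With all arrays, 177 of 1409 genes passed (12.6%), 76 on the positive and 101 on the negative side. Their median size was 1.40-fold and only 8 were beyond 2-fold. The estimate for CG5953 was -2.34 ± 0.18 (SE; adjusted p = 1.9e-06 in limma), for CG4757 -1.92 ± 0.11 (adjusted p = 1.1e-07) and for yip7 1.67 ± 0.13 (adjusted p = 1.9e-06). Glyp had an adjusted p of 8.9e-06 and vanin-like one of 4.2e-06. The weakest of the 18 called genes was Cpr72Ec, at 0.97 ± 0.20 (adjusted p = 0.0051).

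Genes were then grouped by their roles. Each list had few measured members, so the counts speak for these genes and not for whole pathways, and each count stands beside the 12.6% of all 1409 genes that passed. Genes of the testis and of sperm formation all lay on the negative side on the mean of the direct arrays, 5 of 5, where 512 of 940 named genes lay on that side. The lists were chosen with earlier results of these data known, so this count describes the 5 genes and tests nothing. Of these genes, janB and ocn are relatives whose readings are not independent. Of the 5, Prosbeta4R2, ocn and Cdlc2 passed the limma contrast. ocn stood at -0.69 ± 0.13 (adjusted p = 0.0023) and Cdlc2, a dynein light chain, at -0.50 ± 0.11 (adjusted p = 0.0068), though not without the replicate 1 array (adjusted p = 0.17). Hsp60B, a chaperonin of the testis, was at -0.53 (adjusted p = 0.052) and janB at -0.61 (adjusted p = 0.055), and neither passed with these settings. Both lay close to the threshold: Hsp60B passed in 15 of 31 alternative fits, with an adjusted p from 0.0087 to 0.63 over all of them, and janB in 11 of 30, with one from 0.016 to 0.31. The list's median in the fit was -0.61, against -0.01 over all 1409 genes. 

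janB and ocn are related genes that lie next to each other on 3R, and both were printed several times. The 9 features of ocn ranged from -0.96 to -0.29 on the replicate 1 array and from -1.32 to -0.16 on the replicate 2 array, so every one lay on the negative side of both arrays, and 7 of 9 passed the limma contrast. The 5 features of janB had means from -0.85 to -0.34, and 4 of 5 passed, though not the one that stands for the gene, which read -0.87 on the replicate 1 array and 0.19 on the replicate 2 array. Only 1 of these 14 printings, a feature of ocn, was beyond 1.5-fold on both arrays. cDNA of such relatives may bind to each other's spots, so their readings are not independent. By the indirect path the medians were larger, -0.96 for ocn and -1.14 for janB. RpL32, with a direct median of 0.02 over its 12 features, was also negative there in 12 of 12, with a median of -0.46. The part of this offset in the other indirect values was not tested.

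**Figure D4:**
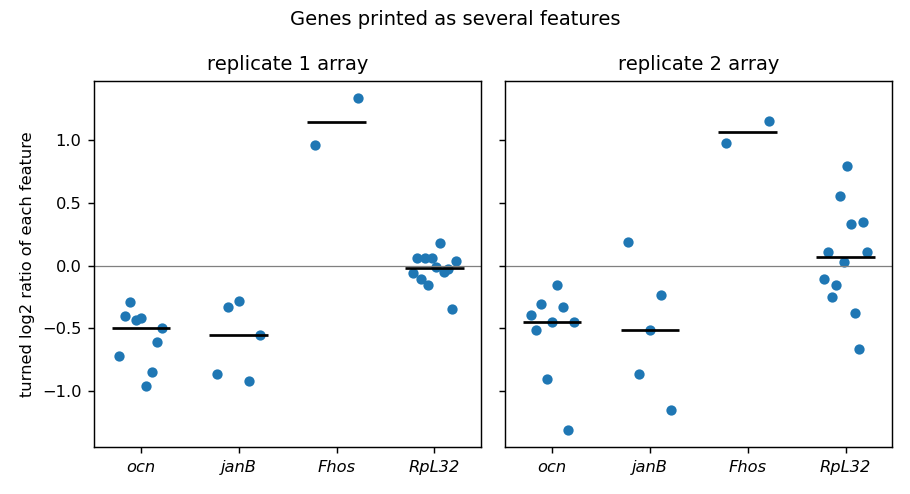
Turned log2 ratio of every feature of ocn (9), janB (5), Fhos (2) and RpL32 (12) on the replicate 1 array (left) and the replicate 2 array (right); lines are medians. All ocn features lie below 0 and both Fhos features near 1 on both arrays, while RpL32 centres near 0 and scatters more on the replicate 2 array.

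Enzymes of energy metabolism went both ways. Of 6 measured genes of central metabolism, 2 passed on the positive side, 1 on the negative side and 3 did not pass in limma. Besides Glyp, the positive one was Scsalpha1, a subunit of the enzyme that makes nucleotide triphosphate in the citric acid cycle, at 0.87 ± 0.12 (adjusted p = 0.00029). It read only 0.25 on the replicate 1 array and 1.38 on the replicate 2 array, so it was not called on both. Got2 passed on the negative side at -0.68 ± 0.11 (adjusted p = 0.0011). Treh, trehalase, was at -0.25 (adjusted p = 0.11), fbp, fructose bisphosphatase, at -0.31 (adjusted p = 0.22) and Pfk, phosphofructokinase, at -0.11 (adjusted p = 0.60). Of these sugar enzymes Glyp alone passed; differences between the enzymes were not tested. In the respiratory chain, ND-51, a subunit of complex I, passed at 0.63 ± 0.11 (adjusted p = 0.0016), while COX7C was at 0.14 (adjusted p = 0.52).

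Lipid genes also lay on both sides, with 3 of 8 past the contrast. Acsl, which activates long-chain fatty acids, was at 0.63 ± 0.11 (adjusted p = 0.0019) and mino, an acyltransferase of glycerolipid synthesis, at 0.36 (adjusted p = 0.033), a call that was lost in 6 of 31 alternative fits, including those without any 1 of the 3 arrays of Zimbabwe29 (adjusted p = 0.057 to 0.14). mdy, which makes triacylglycerol, was at -0.56 ± 0.10 (adjusted p = 0.0024). bgm was at -0.29 and did not pass (adjusted p = 0.14 in limma, but 0.032 with centred print blocks). Nor did the lipase gene bmm (-0.18, adjusted p = 0.37), the lipid droplet gene Lsd-2 (-0.05, adjusted p = 0.89), the fatty acid synthase gene FASN1 (0.03, adjusted p = 0.87) and bond (0.03, adjusted p = 0.91).

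Of 4 genes for digestive enzymes, 2 passed, both on the positive side, a count too small to set against the share of all genes. These were yip7 and mag, a lipase secreted by the gut, which read 0.61 on the replicate 1 array and 0.49 on the replicate 2 array (fit 0.60 ± 0.09, adjusted p = 0.00057). sphe, a relative of serine proteases, was at -0.27 (adjusted p = 0.11, but 0.034 without the replicate 1 array of the pair and 0.034 without that of Canton S and Zimbabwe53) and CG5966, a lipase relative, at 0.06 (adjusted p = 0.77). Of 9 detoxification enzymes, 3 passed: Ugt35A1 on the positive side (0.96 ± 0.12, adjusted p = 0.00011) and the cytochrome P450 genes Cyp12d1-p (-0.76 ± 0.10, adjusted p = 0.00022) and Cyp4ac1 (-0.52 ± 0.13, adjusted p = 0.017) on the negative side. Cyp4ac1 had a direct mean of -0.59 but an indirect value of only -0.33, and did not pass without the replicate 1 array (adjusted p = 0.070) or the replicate 2 array (adjusted p = 0.10). The other 6 stood between -0.19 for GstZ2 and 0.32 for GstE13. Some fly genomes carry a near-identical second copy of Cyp12d1-p, which spotted cDNA cannot separate from the first.

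Of 7 tRNA synthetase genes, 3 passed, all on the positive side: LeuRS (0.46 ± 0.11, adjusted p = 0.010), IleRS (0.41 ± 0.10, adjusted p = 0.016) and AsnRS (0.37 ± 0.10, adjusted p = 0.020), which load tRNAs with leucine, isoleucine and asparagine. LeuRS and IleRS were larger by the indirect path (0.65 and 0.60), whereas AsnRS was only 0.09 there. All 3 calls depended on single arrays of Zimbabwe29: AsnRS did not pass without the replicate 2 array (adjusted p = 0.41), IleRS without the replicate 1 array (adjusted p = 0.12), and LeuRS and IleRS without the array with Hikone R (adjusted p = 0.059 and 0.093). The list's median was 0.18. Of the 7, GlnRS was at 0.18 (adjusted p = 0.34) and the remaining 3, LeuRS-m, CysRS and TyrRS, were between -0.05 and 0.09. Among 9 translation factors, eIF3d2 passed at -0.86 ± 0.15 (adjusted p = 0.0017); it was measured only on the replicate 1 array of the pair, at -0.86. eIF2Bepsilon was at 0.31 (adjusted p = 0.045), a call that was lost in 15 of 30 alternative fits (adjusted p up to 0.54), among them those without any 1 of the arrays of Zimbabwe29. The other 7 did not pass. Of 4 cytoplasmic ribosomal protein genes only RpS10a passed (-0.46 ± 0.10, adjusted p = 0.0057), with 0.01 on the replicate 1 array and -0.94 on the replicate 2 array. The RpS10a value therefore comes from the noisier array and from the indirect path (-0.49), and it did not pass without that array (adjusted p = 0.20).

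Of 6 genes in the muscle list, Strn-Mlck, a myosin light chain kinase of muscle, passed at 0.74 ± 0.11 (adjusted p = 0.00088). It read 0.31 on the replicate 1 array and 1.17 on the replicate 2 array, and no indirect value could be formed. Without the replicate 2 array it did not pass (adjusted p = 0.054). Prm, paramyosin, was at 0.28 (adjusted p = 0.12 in limma, but 0.018 without the replicate 2 array and 0.0069 with centred print blocks). The list members up, Zasp66, Sh and Msp300 lay between -0.17 and 0.12. Cpr72Ec was the only 1 of 4 cuticle protein genes to pass, beside TwdlW at 0.20, Cpr49Ac at 0.05 and Lcp65Ag3 at -0.07. Of 4 clock genes, Pdp1, a transcription factor of the circadian loop, passed at 0.48 ± 0.10 (adjusted p = 0.0051), but not without the replicate 2 array (adjusted p = 0.14). cwo, a repressor in the same loop, was at 0.56 with a larger error of 0.19 (adjusted p = 0.068, passing in 7 of 30 alternative fits), and was measured only on the replicate 1 array of the pair. slmb was at 0.24 (adjusted p = 0.19) and jet at 0.05 (adjusted p = 0.82).

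None of 5 proteasome genes passed with these settings, the most different being Rpn1 at 0.22 (adjusted p = 0.20 in limma, but 0.023 with centred print blocks). None passed among 5 chaperone genes, where Hsp60B had the smallest adjusted p (0.052), among 3 eye genes (smallest adjusted p = 0.63, rdgA), or among 2 mitochondrial ribosomal protein genes (smallest adjusted p = 0.60, mRpL54). Of 3 genes in the cytoskeleton list, Cdlc2 passed and ctp and cpa did not (adjusted p = 0.26 and 0.60). The single odorant-binding gene, Obp19d, was at 0.09 (adjusted p = 0.63). The single gene of the ovary list, ovo, was at -0.24 (adjusted p = 0.17), and no other gene of that list was measured. This value is no check for female tissue. No gene of the accessory gland or immune lists was measured.

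The same 18 genes were read in the other comparisons of Canton S, which all share the Canton S pool. The values are turned as Canton S in channel 1 against the partner in channel 2, with 2 arrays for each partner but Zimbabwe2, which had 1. Only 1 array measured vanin-like against Hikone R, and only 1 measured Cpr72Ec against Zimbabwe53 and against Oregon R. rtet was nearly the same against every partner: 0.97 for Zimbabwe29, 1.01 for Zimbabwe2, 0.88 for Zimbabwe30, 1.10 for Zimbabwe53, 1.18 for Hikone R and 0.94 for Oregon R. vanin-like was -1.34 for Zimbabwe29 and lay between -1.56 and -1.13 for the others except Oregon R, at -0.15.

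Other genes differed between partners. Glyp was 1.29 for Zimbabwe29, 0.64 for Zimbabwe30, 0.47 for Zimbabwe2, -0.03 for Zimbabwe53 and -0.12 for Hikone R and for Oregon R. Prosbeta4R2 was -1.27 for Zimbabwe29, -0.79 for Zimbabwe30 and -0.46 for Zimbabwe2, and was near 0 for Zimbabwe53, at -0.08. Both genes had their largest value in the comparison with Zimbabwe29. In CG5953, Zimbabwe29 (-2.63) was close to Zimbabwe2 (-2.32) and Zimbabwe30 (-2.12), while Zimbabwe53 was at -0.66, Oregon R at 0.25 and Hikone R at 2.63. Cpr72Ec was smaller for Zimbabwe29, at 1.03, than for the other 3 Zimbabwe strains, from 1.43 to 2.95. Cyp12d1-p was -0.73 for Zimbabwe29 and between -1.79 and -1.32 for Oregon R and the other Zimbabwe strains, with Hikone R at -0.44. Differences between partners in these values were not tested.

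**Figure D5:**
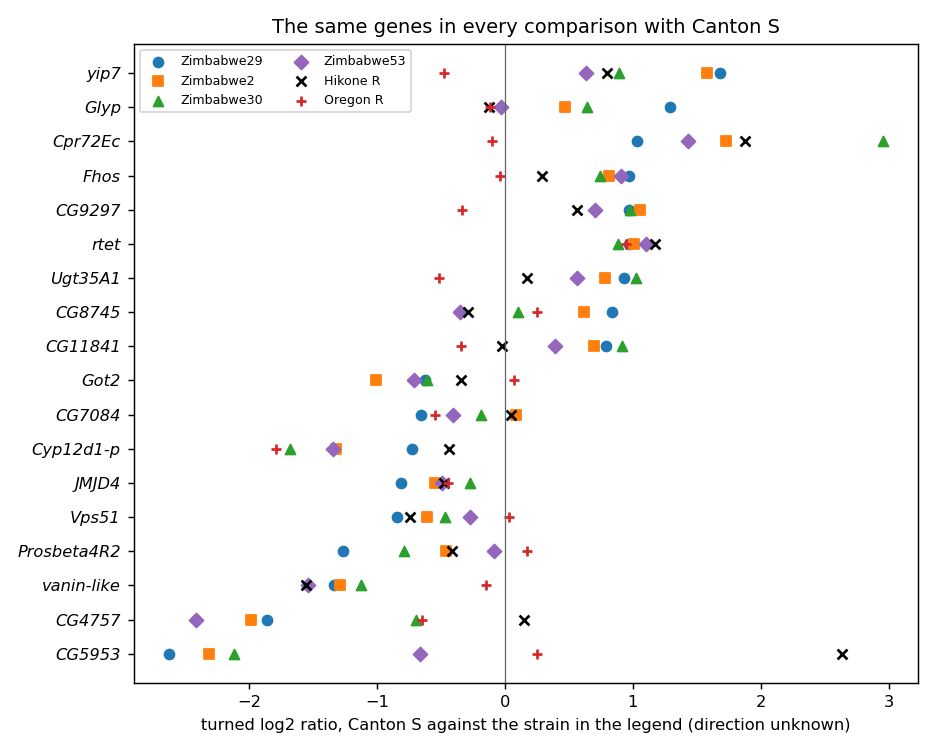
Turned log2 ratio of the 18 called genes in each comparison of Canton S with the strain in the legend (mean of 2 arrays, or 1 for Zimbabwe2, for vanin-like against Hikone R and for Cpr72Ec against Zimbabwe53 and Oregon R; dye offset removed). rtet values from all partners lie close together, Glyp and Prosbeta4R2 are most extreme for Zimbabwe29, and CG5953 spreads from -2.63 for Zimbabwe29 to 2.63 for Hikone R.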

How the data were processed

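The authors deposited 1 table of log ratios of the 2 channels of each array, which were read as log10 values. The log base, scanner, spot filter and normalization were not stated in the labels or the table. The values were converted to log2 and centred on each array's median. The members and gene lists were chosen with earlier results of these data known. Gene names came from the supplied platform annotation (1943 of 6101 features with 1 name, all matched by Entrez identifier to the Release 6 table; 67 with several and 4091 with none here were counted, not named). A gene with several features was represented by that measured on most arrays, then the lowest identifier.

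For the strain fit, a dye offset per feature, the mean over the 8 channel-exchanged pairs, was subtracted, arrays of a pair were turned and averaged, and limma 3.58.1 in R 4.3.3 fitted strain levels to 13 pairs, weighted by number of arrays, with Zimbabwe29 as the base so that the coefficient of Canton S is the contrast. Features needed 10 pairs, 3 complete exchanged pairs and all strains estimable. P-values were adjusted over all 4841 features. The fit was also run on simulated data, with independent noise sized by the arrays of a strain against itself. That noise held no noisier array and no shared array effect. The run therefore cannot show that the adjusted p-values hold for this pair. For the indirect path the dye offset came from the other 7 exchanged pairs. No intensities were used, so signal over background is unknown, and precision is limited by how many arrays there are. Named were up to 25 called genes of largest size (18 were found), members of lists that were called or whose list had at most 8 measured genes, and the 3 genes with the widest gap between direct and indirect values. Some members of longer lists are given by values beyond that rule. Alternatives covered centring, scaling, dye offset, weights, filters, log base and leaving out arrays. All value columns were assigned to samples by name.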

Additional observations from a re-analysis of the deposited data

How the results depend on the processing

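The 109 features beyond 1.5-fold on both arrays numbered 90 to 109 under other centrings, with scaled arrays or without the 2 last rows of each print block. They became 30 at 2-fold, and 4 if the deposited ratios were log2, where the SD of the mean ratio was 0.102 in place of 0.34. On single arrays 279 and 560 features were beyond 1.5-fold, and the SD was 0.319 and 0.463; the higher values came from the replicate 2 array. The 788 features of the strain fit became 516 of 1727 when only features measured on all 21 arrays were tested, which leaves fewer features, and 159 without both direct arrays, which leaves 1 array of Zimbabwe29. The count was 692 with equal weights, 705 with scaled arrays, 772 without the dye offset and 1016 with centred print blocks. Leaving out 1 array at a time gave 469 to 991. Of the 18 called genes, 12 passed the strain fit under every alternative run, and the other 6 failed only without both direct arrays. The root mean square difference of direct and indirect values was 0.247 with centred print blocks. It was 0.294 to 0.418 with 1 array left out, where the set of features compared also changed. No paired analysis was possible because the labels carry no replicate numbers and those used here only follow the order of the samples. Array titles do share stems, across pairs of strains. In a fit of single arrays with a dye term, 884 features passed without the stem and 788 with the stem as a random block.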

Other observations

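By chromosome arm, the strain fit called 26 of 253 genes on the X (10.3%), 39 of 248 on 2L (15.7%), 32 of 255 on 2R (12.5%), 50 of 284 on 3L (17.6%) and 30 of 352 on 3R (8.52%), and 0 of 17 genes on chromosome 4, beside 12.6% of all 1409 genes in limma. Of the 18 genes beyond 1.5-fold on both arrays, vanin-like alone lay on the X. Differences between arms were not tested.

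Most of the largest differences have no gene name here. Of the 109 called features, 85 carried no name and 4 carried several. The first 4 grid rows of the print blocks held 46.8% of the called features and 26.7% of those measured on both arrays, and the last 2 rows held none of 109 and 91 of 3252. Whether a DNA was printed repeatedly among the features without a name is not known. Of 1716 features measured on the replicate 1 array alone, 66 were beyond 1.5-fold there (3.85%), against 6.55% of the features measured on both arrays.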
